A study of Mus musculus with 7 samples.

Results

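Cells that divide switch on a shared set of genes for mitosis, and 42 of them are described here: mitotic cyclins and kinases, spindle checkpoint and kinetochore proteins, kinesins, cytokinesis proteins and condensin subunits. Members were taken by gene symbol, and 41 of the 42 had a probe set of their own among 19938 genes measured. Ccnb1, the gene of cyclin B1, was not analysed here. RNA was hybridised to 7 single-colour Affymetrix Mouse Gene 1.0 ST arrays, 1 per sample. Of these, 6 came from B16F10, a pigmented mouse melanoma line grown in DMEM with serum: parental cells and clone A1, labelled PECAM1− (n = 2), and the PECAM1+ clones A2 to A5 (n = 4). The last came from mouse dermal endothelial cells (MDEC), also labelled PECAM+ and grown in DMEM with an endothelial supplement, so cell type and medium cannot be told apart in it. PECAM1, also called CD31, is a cell adhesion molecule known from endothelium. Each clone is 1 line on 1 array, no treatment or engineered allele is named in the labels, and separate cultures are not stated, so the p-values speak only of the spread among these arrays, which may be technical.

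Mitotic genes are transcribed late in the cell cycle, so that their RNA is high in populations with many cells in G2 and M phase. Many of their promoters are held silent in resting cells by the DREAM repressor complex and are opened in G2 by B-MYB and FOXM1. The best known promoter elements are the cell cycle genes homology region (CHR) and CCAAT boxes, which bind NF-Y. Proliferating cells, tumour lines among them, carry this set at high levels, and MKI67 and TOP2A are used by pathologists as proliferation markers.

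Promoter sequences were set beside the expression values because the members lay low together in clone A1. Of the 42 members, 34 matched a promoter in the RefSeq table (GRCm38.p6), which holds the 250 bases before and the 50 bases after each gene's start. All motifs were searched on both strands. A CHR was taken as the letters TTTGAA, or with the variant core that is also known from cell cycle promoters, TTCGAA. The box bound by NF-Y was taken as CCAAT. The E2F core was taken as GCGGGAA, or as its other common form, GCGCGAA. CHR matches and CCAAT matches shared bases in 1 promoter of the members. At least 1 CHR was present for 26 of 34 members (76.5%), where 21.7% of all 27025 genes in the table had one. A CHR lay wholly before the start for 14 members and wholly after it for 17, and a member can count in both. A CCAAT box was present for 25 members (73.5%, against 41.1% of all genes), at least 2 CCAAT boxes for 16 (47.1%, against 13.3%), and both motifs for 22 (64.7%, against 8.61%). The E2F core was in 2 of 34 members, Cdk1 and Ncapg (5.88%, against 6.86% of all genes). A match is a run of letters and not a shown binding site.

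The promoters below show the 150 bases before the start, 5′ to 3′ along the gene, with CHR and CCAAT matches in capitals (ATTGG and TTCAAA are the same motifs on the other strand). Among the 33 measured members with a promoter, Plk1 (chr7:122159285-122159434, plus strand) and Bub1 (chr2:127831860-127832009, minus strand) are those with a CHR that differed most from clone A1. Nuf2 (chr1:169531465-169531614, minus strand) and Nek2 (chr1:191821323-191821472, plus strand) are the same for those without one. Ccna2, the member with the largest difference from clone A1, had no promoter in the table. Top2a (chr11:99024190-99024339, minus strand) and Cdk1 (chr10:69352913-69353062, minus strand) were added after the motif counts were seen, since they carry several matches of both motifs. In Plk1 and Bub1 the CHR lay after the start, and those sites are given as 24 bases at chr7:122159456-122159479 and chr2:127831831-127831854.
Plk1: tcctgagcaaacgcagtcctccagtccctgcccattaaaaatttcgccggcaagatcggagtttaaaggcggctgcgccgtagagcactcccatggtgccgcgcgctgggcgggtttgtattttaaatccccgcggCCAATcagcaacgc
Bub1: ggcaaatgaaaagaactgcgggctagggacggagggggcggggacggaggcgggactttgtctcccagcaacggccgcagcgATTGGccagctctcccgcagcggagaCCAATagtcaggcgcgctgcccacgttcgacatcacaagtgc
Nuf2: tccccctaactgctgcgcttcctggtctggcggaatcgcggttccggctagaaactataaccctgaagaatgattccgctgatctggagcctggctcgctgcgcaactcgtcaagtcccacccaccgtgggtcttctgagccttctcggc
Nek2: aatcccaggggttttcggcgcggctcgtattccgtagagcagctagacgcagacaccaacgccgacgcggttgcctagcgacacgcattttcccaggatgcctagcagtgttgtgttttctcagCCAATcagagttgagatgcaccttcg
Top2a: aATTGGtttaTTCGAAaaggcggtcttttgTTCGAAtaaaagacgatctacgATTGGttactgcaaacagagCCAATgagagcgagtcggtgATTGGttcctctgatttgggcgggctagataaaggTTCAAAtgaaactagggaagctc
Cdk1: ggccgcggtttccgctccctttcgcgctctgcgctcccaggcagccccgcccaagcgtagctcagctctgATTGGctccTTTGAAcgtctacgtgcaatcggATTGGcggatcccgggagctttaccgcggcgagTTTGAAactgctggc
Plk1 site after the start: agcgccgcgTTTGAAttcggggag
Bub1 site after the start: cgcggggaaTTCGAAtcgccggcg

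Bub1 showed CCAAT matches beginning 68 and 42 bases before its start and a CHR beginning 15 bases after it. Cdk1 had a CHR beginning 71 and another 15 bases before its start. Nuf2 had neither motif in the whole window and Nek2 had CCAAT boxes and no CHR, and both differed from clone A1, by 4.41 and 3.49 log2 units. Among the 33 measured members with a promoter, the 26 with a CHR had a median difference from clone A1 of 3.02 log2 units (range 1.98 to 4.31), and the 7 without one had 3.42 (range 2.82 to 4.41), so the ranges overlapped.

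**Figure D1:**
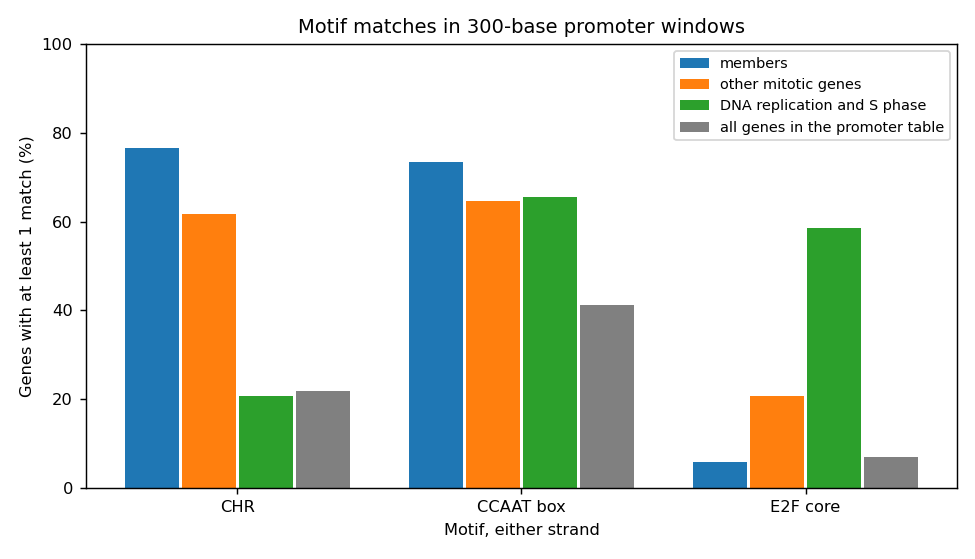
Bars show the share of genes (percent) with at least 1 match of each motif on either strand in promoter windows of the same length, for the members, 2 other gene lists and all genes of the RefSeq promoter table. The CHR was found for 76.5% of the members and 20.7% of DNA replication genes, and the E2F core for 5.88% and 58.6%.

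Array medians lay between 6.12 and 6.18 log2 units, and Pecam1 itself was at 5.27 and 5.43 on the PECAM1− arrays, 11.03 ± 0.03 (SD, n = 4) on the PECAM1+ arrays and at 11.72 in MDEC, as labelled. The summed log2 level of 10 melanocyte markers was 111.7 in clone A1, against 109.0 in parental cells, 107.9 to 115.4 in the PECAM1+ clones and 57.5 in MDEC. For 10 endothelial markers the sums were 53.6, 54.3, 53.8 to 54.5 and 104.6 in the same order, so by these sums each cell type carried its own markers. Oca2 of the melanocyte list did not separate them. It was at 7.30 in clone A1, 6.00 in parental cells, 5.41 to 7.18 in the PECAM1+ clones and 5.54 in MDEC. For 7 of 8 leukocyte markers with a probe set the sums were 40.1, 38.5, 39.4 to 41.8 and 55.5. For 9 fibroblast and mural cell markers they were 51.5, 53.9, 53.0 to 55.9 and 53.6, and for 5 keratinocyte markers 28.0, 28.4, 28.0 to 28.6 and 28.7. Clone A1 lay outside the other B16F10 arrays for the endothelial and fibroblast lists, in both as the lowest, and its sums for the other lists lay within theirs. Single markers went apart from these sums. The leukocyte list held Cd68, a lysosomal protein of macrophages, at 10.07 in clone A1, 7.52 in parental cells, 7.96 to 8.16 in the PECAM1+ clones and 11.18 in MDEC, and it passed as higher in clone A1 (PECAM1+ mean 8.07 ± 0.09, SD, n = 4, limma adjusted p = 0.00312). In the same list Lyz2, the lysozyme of myeloid cells, was at 4.78 in clone A1, 5.43 in parental cells and 6.34 to 8.03 in the PECAM1+ clones, and did not pass (limma adjusted p = 0.095), while Ptprc, the pan-leukocyte marker CD45, was at 4.96 to 5.15 on all 7 arrays. In MDEC, 3 of the 7 leukocyte markers lay above all 6 B16F10 arrays and at least 4-fold from the average of the PECAM1− and PECAM1+ means. Of all genes, 4.73% were that far outside in either direction. The marker furthest above the PECAM1+ mean in MDEC was 6.85 log2 units higher. Tie1 of the endothelial list (0.26 ± 0.03) and Col1a2 of the fibroblast list (0.72 ± 0.15) passed as lower in clone A1. The part of other cell types in the results was not tested. The files used here give neither a measure of RNA quality nor detection calls, which leaves the signal over background unknown.

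Clone A1 was compared with the 4 PECAM1+ clones to describe the members in the PECAM1− clone. All 41 measured members were lower in clone A1, by 1.26 to 4.47 log2 units (2.39-fold to 22.1-fold) with a median of 3.17 (8.98-fold), and clone A1 lay below the other 5 B16F10 arrays for every one of them, as it did for 28.9% of all genes. In limma with Benjamini-Hochberg adjustment over all 19938 genes, 41 of 41 passed as higher in the PECAM1+ clones, where 9.33% of all genes did and 20.5% were called in either direction (adjusted p from 0.000785 to 0.0126). The median over all genes was 0.00484. All 41 were at least 2-fold higher in the PECAM1+ clones, against 3.32% of all genes. Of the members, 39 were at least 4-fold higher in the PECAM1+ clones, against 1.01% of all genes, and 23 were at least 8-fold higher, against 0.366%. Of the 50 genes with the largest such differences 18 were members, and of the 200 largest 39 were. Other mitotic genes, described below, held 10 of the 50 and 48 of the 200, and DNA replication genes 4 and 21. Without detection calls it is not known whether a probe set was above background in clone A1, and where it was not, the fold is only a lower bound. The single array of clone A1 is assumed in this fit to vary like the PECAM1+ clones. A lower level in RNA from a whole culture can come from fewer cells of a type or phase or from less RNA per cell, which cannot be told apart.

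**Figure D2:**
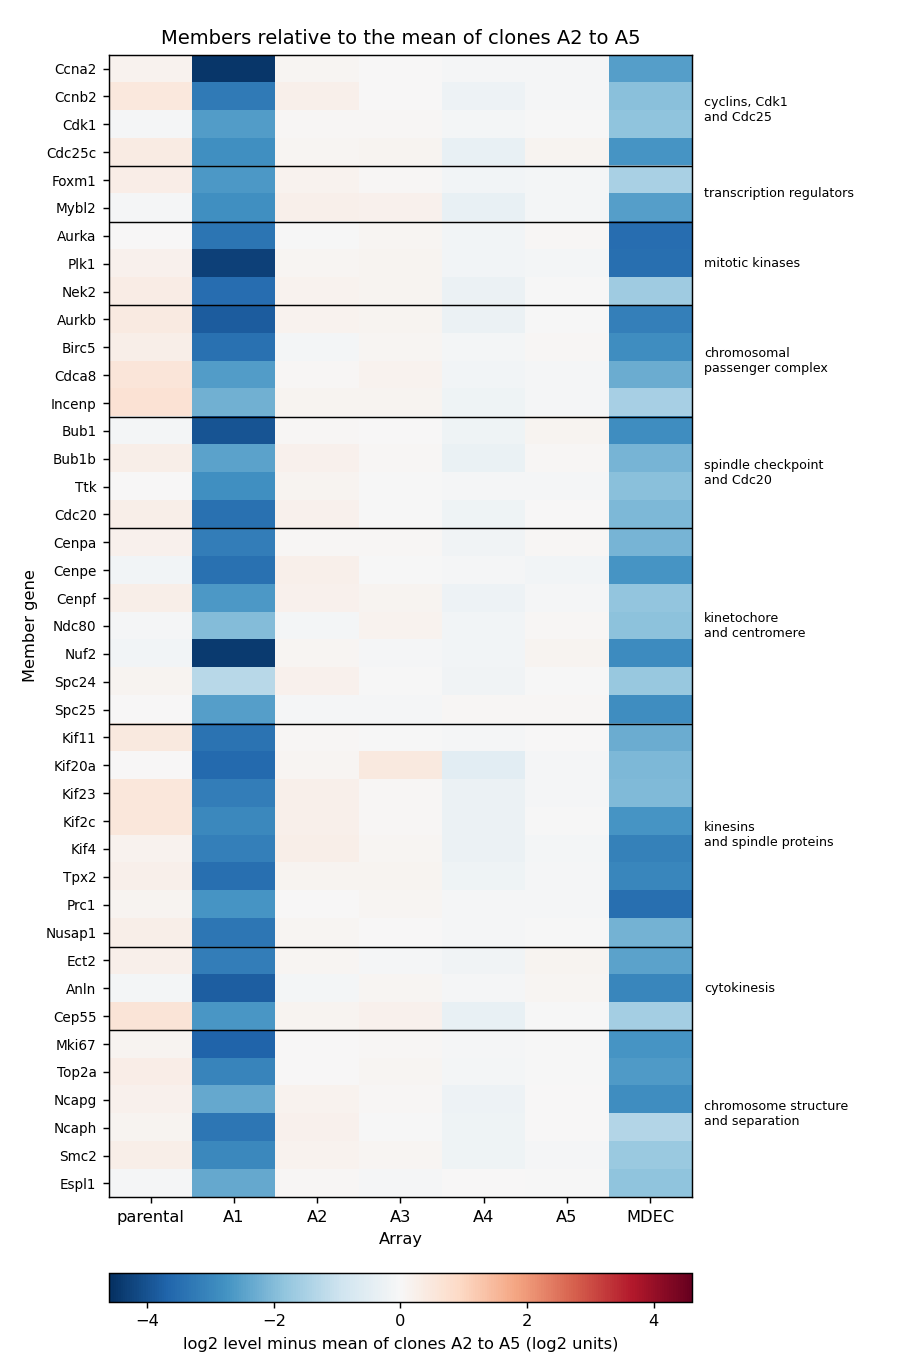
Rows are the 41 measured members, ordered by role, and columns are the 7 arrays. Colour shows the log2 level minus the mean of clones A2 to A5 (log2 units, blue lower, red higher). Clone A1 is lower in every row, by 1.26 to 4.47, MDEC is lower by at least 1.33, and parental cells lie within 0.66 of the mean.

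Among the drivers of mitotic entry, cyclin A2, which activates CDK2 and CDK1, gave the largest difference. Ccna2 measured 11.54 in parental cells and 6.92 in clone A1, with 11.48, 11.39, 11.33 and 11.34 in clones A2 to A5 and 8.84 in MDEC. Clone A1 stood apart from the other 5 B16F10 arrays, which lay close together. The PECAM1+ clones lay 4.47 ± 0.08 (SE, n = 4 against 1) above clone A1 (limma adjusted p = 0.000785), the sixth largest among all genes. Ccnb2, which encodes cyclin B2, measured 11.85 in parental cells and 8.09 in clone A1, with 11.60, 11.39, 11.14 and 11.30 in clones A2 to A5 and 9.44 in MDEC, a difference of 3.27 ± 0.19. Cdk1, the kinase that these cyclins switch on, measured 11.11 in parental cells and 8.60 in clone A1, with between 11.08 and 11.23 in the PECAM1+ clones and 9.32 in MDEC, a difference of 2.57 ± 0.08. Cdc25c, a phosphatase that removes the inhibitory phosphates from CDK1, was at 8.34, 5.14, 7.62 to 8.11 and 5.25 in the same order, a difference of 2.83 ± 0.23.

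Both transcription regulators were lower in clone A1. Foxm1, a forkhead activator of G2 and M genes, measured 10.29 in parental cells and 7.33 in clone A1, with 9.85 to 10.13 in the PECAM1+ clones and 8.50 in MDEC, a difference of 2.65 ± 0.13 (SE). Mybl2, which encodes B-MYB, was at 9.67, 6.91, 9.41 to 9.97 and 7.19, a difference of 2.82 ± 0.26. Their limma adjusted p values were 0.00321 and 0.00782.

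The 3 mitotic kinases differed from clone A1 by 3.35 to 4.31 log2 units. Plk1, a kinase of spindle poles, kinetochores and cytokinesis, measured 11.18 in parental cells and 6.69 in clone A1, with 11.09, 11.11, 10.87 and 10.90 in clones A2 to A5 and 7.51 in MDEC. Clone A1 was the lowest array and MDEC the next, with a wide gap to the rest. The difference was 4.31 ± 0.13 (SE), or 19.8-fold (limma adjusted p = 0.00186). Aurka, the spindle pole kinase Aurora A, was at 11.04, 7.66, 10.90 to 11.10 and 7.52 in parental cells, clone A1, the PECAM1+ clones and MDEC. Nek2, a kinase that separates centrosomes, was at 9.90, 6.08, 9.31 to 9.71 and 7.92. They differed by 3.35 ± 0.09 and 3.49 ± 0.19.

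The chromosomal passenger complex corrects faulty attachments of chromosomes to the spindle, and its 4 members differed unequally. Aurkb, its kinase, measured 11.79 in parental cells and 7.56 in clone A1, with 11.54, 11.50, 11.13 and 11.38 in clones A2 to A5 and 8.24 in MDEC. The difference from clone A1 was 3.82 ± 0.18 (SE), and that of Birc5, which encodes survivin, was 3.42 ± 0.10. Cdca8, which encodes borealin, differed by 2.56 ± 0.13 and Incenp, the scaffold of the complex, by 2.21 ± 0.16. Incenp measured 9.30 in parental cells and 6.44 in clone A1, with 8.44 to 8.77 in the PECAM1+ clones and 7.10 in MDEC, with parental cells above all 4 clones.

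Spindle checkpoint genes, whose products hold back anaphase until every chromosome is attached, were lower in clone A1 by 2.46 to 3.96 log2 units. Bub1, a checkpoint kinase at kinetochores, measured 9.98 in parental cells and 6.09 in clone A1, with 10.11, 10.08, 9.85 and 10.19 in clones A2 to A5 and 7.20 in MDEC, a difference of 3.96 ± 0.15 (SE). Bub1b, which encodes BUBR1 of the mitotic checkpoint complex, differed by 2.46 ± 0.21. Ttk, the MPS1 kinase that starts the checkpoint signal, differed by 2.82 ± 0.09. Cdc20, the activator of the anaphase-promoting complex that the checkpoint inhibits, was at 10.53, 6.81, 10.06 to 10.44 and 8.19 in parental cells, clone A1, the PECAM1+ clones and MDEC and differed by 3.43 ± 0.16. The limma adjusted p of the 4 ran from 0.00196 to 0.00706.

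The 7 kinetochore and centromere genes held both the second largest and the smallest measured difference of all members. Nuf2, a subunit of the NDC80 complex that grips microtubules, measured 9.06 in parental cells and 4.78 in clone A1, with 9.27, 9.12, 9.06 and 9.31 in clones A2 to A5 and 6.30 in MDEC. Parental cells and clone A4 held the same value. The PECAM1+ clones lay above clone A1 by 4.41 ± 0.12 (SE). The other 3 subunits of that complex differed by less, Ndc80 by 1.98 ± 0.13, Spc25 by 2.54 ± 0.08 and Spc24 by 1.26 ± 0.15. Spc24 measured 7.68 in parental cells and 6.31 in clone A1, with 7.40 to 7.76 in the PECAM1+ clones and 5.84 in MDEC, and it was the one member called with a limma adjusted p above 0.01 (0.0126). Its call was lost without clone A3 (adjusted p = 0.0552) or A5 (0.0584), where it differed by 1.26 in both cases. Cenpa, the centromeric histone H3 variant, differed by 3.17 ± 0.12, the kinetochore motor gene Cenpe by 3.44 ± 0.15 and Cenpf by 2.64 ± 0.20. Probe sets differ in range, so an order of differences between genes is an order on this array.

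The 8 motors and spindle proteins were lower in clone A1 by 2.70 to 3.56 log2 units. Kif11, the bipolar spindle motor Eg5, measured 10.00 in parental cells and 6.14 in clone A1, with 9.62, 9.53, 9.47 and 9.56 in clones A2 to A5 and 7.26 in MDEC, a difference of 3.41 ± 0.07 (SE). Kif20a, a motor of the central spindle, had the widest spread of all members, with 10.47, 10.80, 9.90 and 10.30 in clones A2 to A5 (SD 0.38, n = 4) and 6.81 in clone A1. Its difference of 3.56 ± 0.37 passed (limma adjusted p = 0.00996), but not without clone A5 (3.58, adjusted p = 0.0502). Differences were 3.17 for Kif23, a centralspindlin motor, 2.98 for Kif2c, which depolymerises microtubules at centromeres, and 3.14 for the chromokinesin Kif4. They were 3.45 for Tpx2, which activates Aurora A on the spindle, 2.70 for the microtubule bundler Prc1 and 3.34 for Nusap1.

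The 3 cytokinesis genes were lower in clone A1 by 2.68 to 3.78 log2 units. Anln, which encodes the contractile ring scaffold anillin, measured 10.46 in parental cells and 6.77 in clone A1, with 10.46, 10.62, 10.47 and 10.61 in clones A2 to A5 and 7.55 in MDEC, a difference of 3.78 ± 0.09 (SE). Ect2, the activator of RhoA at the cleavage plane, differed by 3.20 ± 0.12 and Cep55, which recruits the abscission machinery, by 2.68 ± 0.23. Parental cells lay above all PECAM1+ clones for Ect2 and Cep55 and just below them for Anln.

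Genes of chromosome structure and separation were lower in clone A1 by 2.35 to 3.68 log2 units. Mki67, a surfactant of mitotic chromosomes, measured 10.52 in parental cells and 6.71 in clone A1, with 10.41, 10.44, 10.34 and 10.36 in clones A2 to A5 and 7.67 in MDEC. The PECAM1+ clones were within a narrow band (SD 0.05, n = 4) and 3.68 ± 0.06 (SE) above clone A1, or 12.8-fold (limma adjusted p = 0.000785). Top2a, which encodes the topoisomerase that untangles sister chromatids, was at 10.33, 6.96, 9.93 to 10.09 and 7.42 in parental cells, clone A1, the PECAM1+ clones and MDEC, a difference of 3.05 ± 0.08. The condensin genes Ncaph, Smc2 and Ncapg differed by 3.31 ± 0.16, 2.97 ± 0.15 and 2.36 ± 0.17, and Espl1, which encodes separase, by 2.35 ± 0.06.

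**Figure D3:**
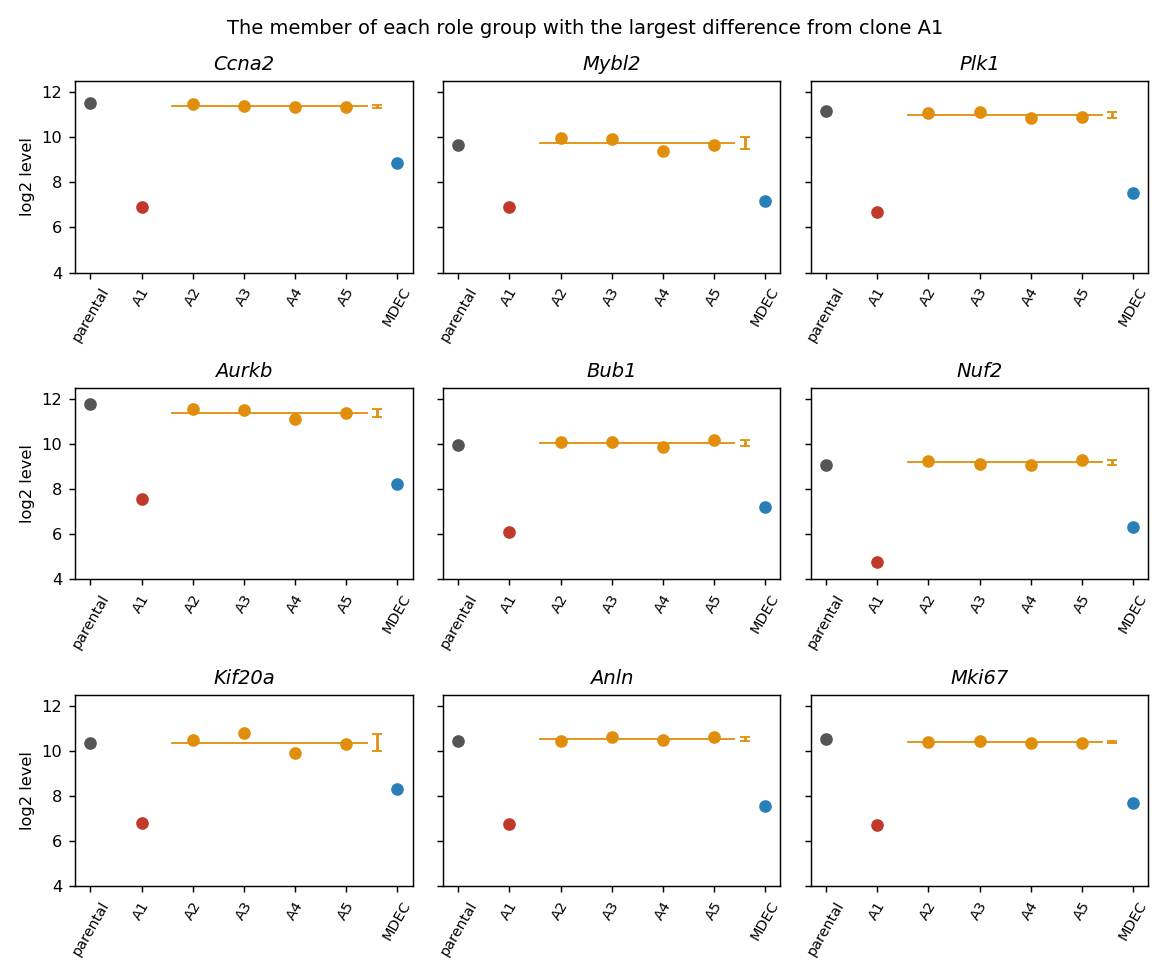
Each panel shows the log2 level (vertical axis) of 1 member on the 7 arrays (horizontal axis), with parental cells in grey, clone A1 in red, clones A2 to A5 in orange and MDEC in blue. The line and bar are the mean and SD of clones A2 to A5 (n = 4), and the member of each role group with the largest difference from clone A1 was drawn. Clone A1 is the lowest array in all 9 panels, for Ccna2 at 6.92 against 11.33 to 11.54 on the other B16F10 arrays.

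Parental cells, the other PECAM1− sample, did not share this pattern. They were at least 2-fold above clone A1 for 41 of 41 members, as for 3.14% of all genes, and at least 4-fold for 39, as for 0.963% (1 array each, so no test). Against the PECAM1+ clones, limma called 0 of 41 members (0.01% of all genes were called, and 5 members had an unadjusted p under 0.05). Parental cells were the higher side for 33 of 41 members and lay above all 4 PECAM1+ clones for 26, against 22.1% of all genes. The median of the PECAM1+ clones minus parental cells was −0.20 over the members (range −0.66 to 0.14) and −0.000665 over all genes.

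The 5 members with an unadjusted p under 0.05 were all higher in parental cells, as 6.68% of all genes were at that level, with 6.78% lower in parental cells. Kif11 differed by −0.46 ± 0.07 (SE, PECAM1+ clones minus parental cells), Cdca8 by −0.56 ± 0.14 and Incenp by −0.66 ± 0.16. Top2a differed by −0.31 ± 0.08 and Nusap1 by −0.27 ± 0.08, and the limma adjusted p of the 5 ran from 0.152 to 0.314. At the other end Cenpe differed by 0.14 ± 0.16 and Nuf2 by 0.13 ± 0.12. These fits again rest on a single array of parental cells.

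With both PECAM1− samples as the reference, which is the grouping in the labels, the members split that group. All 41 were higher in the PECAM1+ clones (50.4% of all genes were), with a median difference of 1.44 log2 units (range 0.57 to 2.27), but limma called 0 of 41 (0.01% of all genes) and 0 had an unadjusted p under 0.05 (9.18% of all genes). Ccna2 differed by 2.15 ± 1.21 (SE), Nuf2 by 2.27 ± 1.12 and Incenp by 0.77 ± 0.76, with limma adjusted p from 0.537 to 0.675 over the 41. Without clone A1 the differences of Ccna2 and Incenp turned to −0.16 and −0.66, and without parental cells all 41 members were called. The PECAM1+ clones lay above both PECAM1− arrays for 2 members, Anln and Espl1 (7.73% of all genes).

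The PECAM1+ clones also differed among themselves in one direction. Clone A4 was the lowest of the 4 for 36 of 41 members, where it was lowest for 30% of all genes. Among lists described below, it was lowest for 28 of 35 DNA replication genes and 56 of 78 other mitotic genes. For the anaphase-promoting complex and cohesin list it was lowest for 13 of 23, and for G1 regulators for 12 of 29. Its median distance from the other 3 clones was −0.22 log2 units over the members (range −0.63 to 0.09) and −0.0112 over all genes. Kif20a, at 9.90 in clone A4 and 10.30 to 10.80 in the others, and Cdc25c, at 7.62 and 8.06 to 8.11, are examples. Clone A2 was the highest for 22 members, where it was for 25.8% of all genes, with a median distance of 0.14. The same clone was highest for 41 of 78 other mitotic genes and 23 of 35 DNA replication genes. For the anaphase-promoting complex and cohesin list it was highest for 14 of 23, and for G1 regulators for 10 of 29. No member was 2-fold away from the other 3 clones in any PECAM1+ clone, and the position of clone A4 was not tested. It was lowest for 26 members after quantile normalization (35.2% of all genes) and for 38 after median centring (43.1%). Parental cells lay above all 4 clones for 26 members under either scaling. On the same arrays clone A4 was the highest of the 4 clones for 10 of 10 melanocyte markers, where it was for 19.6% of all genes. Its summed log2 level of these markers was 115.4, against 107.9 to 111.3 in A2, A3 and A5. The part of this difference in the result was not tested.

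**Figure D4:**
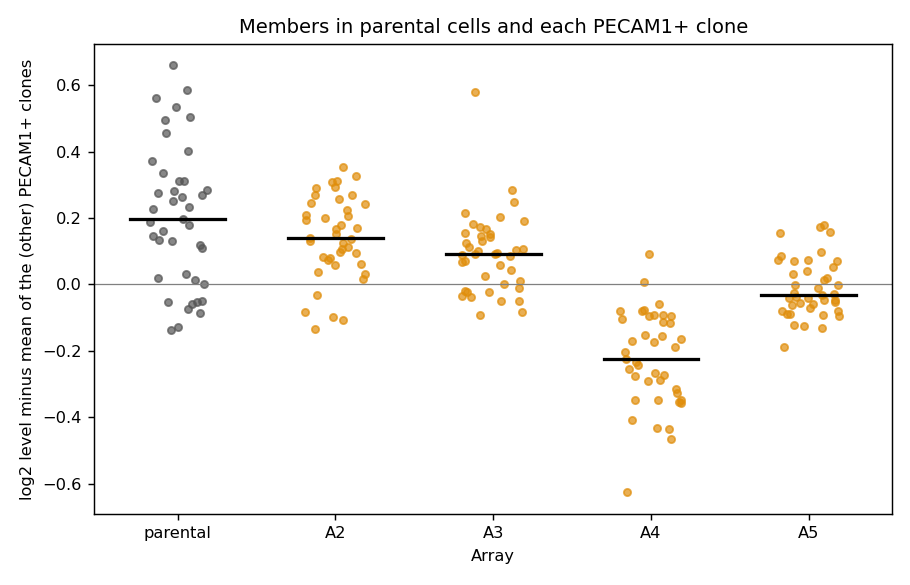
Each point is 1 of the 41 members, and the vertical axis is its log2 level on the array named below minus the mean of the PECAM1+ clones (for a PECAM1+ clone, of the other 3). Black bars are medians, 0.20 in parental cells and 0.14, 0.09, −0.22 and −0.03 in clones A2, A3, A4 and A5.

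MDEC, with 1 array and no test, lay below parental cells and all PECAM1+ clones for 41 of 41 members, as for 31.6% of all genes. For 36 members it lay between clone A1 and those 5 arrays, as for 5.26% of all genes, and the median of MDEC minus clone A1 was 0.73 log2 units. MDEC was at least 4-fold below the mean of the PECAM1+ clones for 28 members (2.57% of all genes), with a median of −2.30, Aurka as the furthest member and Ncaph as the nearest, at −1.33. It was below clone A1 too for 5 members, namely Aurka, Prc1, Ncapg, Spc24 and Spc25, where 26.3% of all genes were below all 6 B16F10 arrays. All of these but Spc24, which makes 4 members, also lay 4-fold or more away from the average of the PECAM1− and PECAM1+ means, against 4.73% of all genes, and 29 members were past this rule when clone A1 was left out. Ncaph and Ccna2 were furthest above clone A1, by 1.98 and 1.92. Plk1 and Aurkb were low in both clone A1 and MDEC, with 7.51 and 8.24 in MDEC.

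Most other genes of mitosis were also lower in clone A1. Of 81 listed genes 78 were measured, and 73 passed as higher in the PECAM1+ clones than in clone A1 in limma (9.33% of all genes), 1 as lower (11.2%) and 4 did not pass, with a median difference of 2.25 log2 units. The largest differences were those of the mitotic kinase gene Pbk (4.65 ± 0.13, SE), Pimreg (4.13 ± 0.23), Fbxo5, which encodes the APC/C inhibitor EMI1 (3.69 ± 0.12), and the spindle protein gene Hmmr (3.62 ± 0.06). The exception was Zwint, a kinetochore gene, at 11.58 in clone A1, 10.88 in parental cells and, over the PECAM1+ clones, 10.67 ± 0.09 (SD, n = 4), a difference of −0.91 ± 0.09 (SE, limma adjusted p = 0.00937). Pttg1, which encodes securin, the inhibitor of separase, was also above the PECAM1+ mean in clone A1, at 9.09 against 8.25 ± 0.19 (SD, n = 4), and did not pass (limma adjusted p = 0.0514). The other genes that did not pass were Cenpc1, Mis12 and Ncaph2.

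Genes of DNA replication and S phase were lower in clone A1 as well. All 35 measured of 36 listed passed as higher in the PECAM1+ clones by limma (9.33% of all genes), with a median of 2.25 log2 units (range 0.95 to 3.98). Rrm2, a subunit of ribonucleotide reductase, differed by 3.98 ± 0.13 (SE), the thymidine kinase gene Tk1 by 3.81 ± 0.06, Mcm5 of the replicative helicase by 3.77 ± 0.09 and Pole of DNA polymerase epsilon by 3.58 ± 0.20. Their promoters carried the E2F core for 17 of 29 genes (58.6%) and a CHR for 6 (20.7%), where other mitotic genes had the core for 14 of 68 (20.6%) and a CHR for 42 (61.8%).

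The core of the anaphase-promoting complex and cohesin, whose subunits are used beyond mitosis, differed less from clone A1 in size. Of 23 genes 4 passed as higher in the PECAM1+ clones than in clone A1 (9.33% of all genes) and 1 as lower (11.2%), with a median of 0.18. The largest were Stag1 (0.86 ± 0.20, SE) and Smc1a (0.71 ± 0.17), which did not pass, and Fzr1, which encodes the APC/C activator CDH1 (0.64 ± 0.09), and the cohesin gene Rad21 (0.62 ± 0.08), which passed in limma. Wapl, which releases cohesin from chromosomes, was the one that passed as lower, at −0.58 ± 0.10.

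Of 29 measured regulators of G1 and of exit from the cycle (30 listed), 11 passed as higher in the PECAM1+ clones than in clone A1 (9.33% of all genes) and 6 as lower (11.2%), with a median of 0.05. Cyclin D1, which couples growth signals to CDK4 and CDK6, was lower in clone A1: Ccnd1 was at 9.08 there, 11.23 in parental cells, 11.09 to 11.60 in the PECAM1+ clones and 11.38 in MDEC, a difference of 2.24 ± 0.23 (SE, limma adjusted p = 0.00955). Also lower in clone A1 were the E2F partner Tfdp1 (1.94 ± 0.15), the pocket protein gene Rbl1 (1.79 ± 0.11), Lin9 (1.56 ± 0.17), which the MuvB core shares between DREAM and B-MYB, and Ccnd3 (0.70 ± 0.13). The CDK inhibitor genes Cdkn2d (0.67 ± 0.08), Cdkn2c (0.55 ± 0.09) and Cdkn2b (0.42 ± 0.09) passed in that direction too, as did Rbbp4 (0.33 ± 0.04), Cdk4 (0.31 ± 0.03) and Ccng1 (0.29 ± 0.04).

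Higher in clone A1 were the antiproliferative gene Btg1 (−0.89 ± 0.12, SE), the retinoblastoma gene Rb1 (−0.61 ± 0.09) and Cdkn1b, which encodes p27 (−0.35 ± 0.05). Some MuvB subunit genes were higher there too, namely Lin37 (−0.72 ± 0.07), Lin52 (−0.50 ± 0.11) and Lin54 (−0.30 ± 0.06), whereas Lin9 was lower. Lin37 was at 8.83 in clone A1 and 8.02 to 8.15 on the other 5 B16F10 arrays, without overlap. Rbl2, the p130 protein of DREAM, was at 9.10 in clone A1 and 8.81 to 8.94 in the PECAM1+ clones and 8.29 in parental cells, and its difference of −0.24 ± 0.08 did not pass (limma adjusted p = 0.118). Of the 11 listed genes of pocket proteins, E2F and DREAM, 4 passed as higher in clone A1 (11.2% of all genes). Another 4, Tfdp1, Rbl1, Lin9 and Rbbp4, passed as lower in clone A1 (9.33%). E2f4 and E2f5 of that list differed by −0.01 and −0.54 and did not pass. Cdkn1a, the p21 gene, was not analysed here. None of the 29 genes was called against parental cells by limma (0.01% of all genes were). Of the 6 with an unadjusted p under 0.05, 2 were higher in parental cells (6.68% of all genes were) and 4 lower (6.78%).

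**Figure D5:**
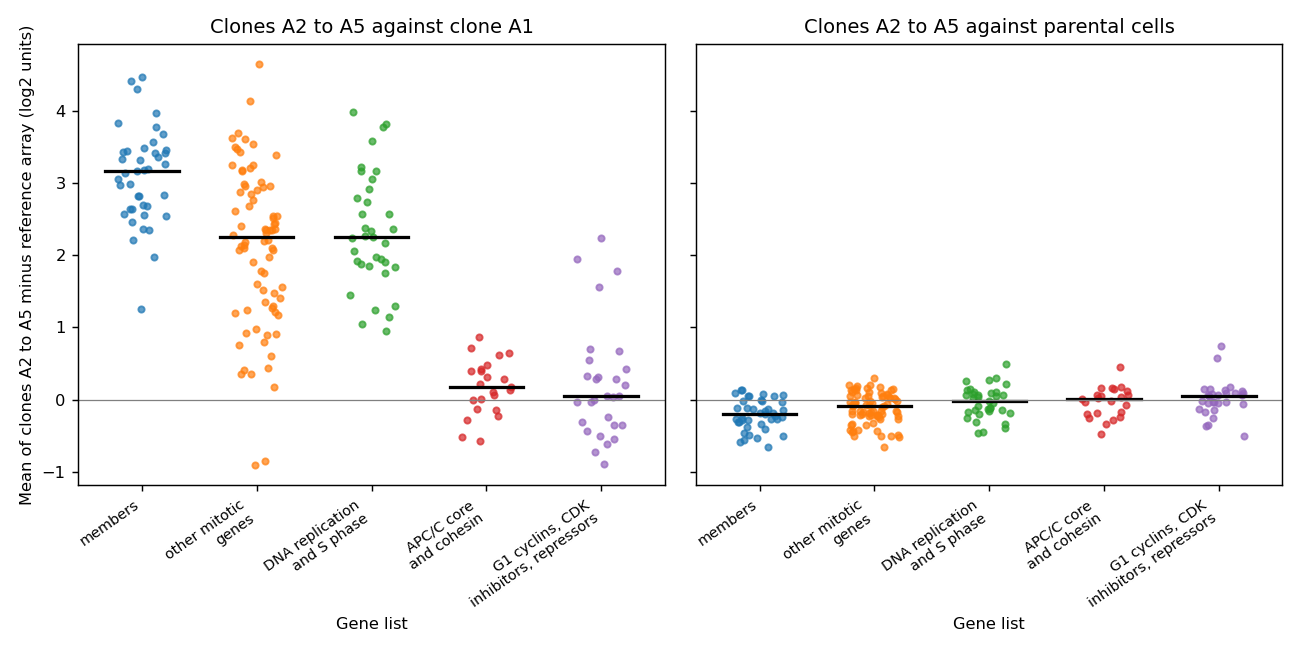
Each point is 1 gene of the list named below, and the vertical axis is the mean of clones A2 to A5 minus clone A1 (left) or minus parental cells (right), in log2 units. Black bars are medians, on the left 3.17 for the members, 2.25 for other mitotic genes, 2.25 for DNA replication, 0.18 for the APC/C core and cohesin and 0.05 for G1 regulators, and on the right −0.20, −0.09, −0.02, 0.01 and 0.05. Both panels share the PECAM1+ clones.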

How the data were processed

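Total RNA from cultured cells was labelled with biotin and hybridised to Affymetrix Mouse Gene 1.0 ST arrays, per the labels' protocols. The values the authors deposited are on a log2 scale, as judged from their range, with 1 value for each probe set on each array. The submitters' processing notes name Partek. How the probes were summarised and normalized is not given in the sources used here. Of 35557 probe sets, 21789 had 1 gene symbol in the platform annotation, 1621 several and 12147 none, and those with several or none were not named. For genes with more than 1 probe set (999), the one with the highest mean over the 7 arrays was used.

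Two-sided tests were made in R 4.3.3 with limma 3.58.1, by lmFit and a trended eBayes, over all 19938 genes, with Benjamini-Hochberg adjustment and a threshold of 0.05. The script was tested on simulated independent normal values, in which the reference arrays were given the spread of the PECAM1+ clones. That test cannot show whether a single reference array does vary like those clones. MDEC was described by a rule of size, namely 4-fold or more away from the average of the PECAM1− and PECAM1+ means and beyond all 6 B16F10 arrays. Alternatives were other scalings, a filter on dim genes, other probe set rules, other eBayes settings, array weights and leaving out each sample. At least 1 pair of B16F10 arrays held an identical value for 50.9% of genes and for 3 of the 41 members, which can make a spread too small. The number of arrays limits the precision. Every member is named, and of the other lists up to 4 genes with the largest difference from clone A1. Genes called against their list's direction and every called G1 regulator are named too. Pttg1, Cenpc1, Mis12, Ncaph2, Rbl2, E2f4, E2f5 and Oca2 were named after their values were seen. The members and lists were chosen with earlier results of these data known.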

Additional observations from a re-analysis of the deposited data

Results flagged for a closer look

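Among the 4 PECAM1+ clones, clone A4 lay far from the other 3 for 2 of the 41 members, by the ratio of its gap to the whole range. Cdc25c was at 7.62 in clone A4 and at 8.06 in the next lowest clone. Cenpa was at 9.94 in clone A4 and at 10.14 in the next lowest clone. Chance alone marks about 1 in 20 groups of this size, and 21.1% of all genes were marked in these data, where identical values in several arrays are common.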

How the results depend on the processing

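The count of 41 members called against clone A1 stayed at 41 under quantile normalization, median centring, the filter on dim genes, all probe sets, the mean over probe sets, both other eBayes settings and with parental cells joined to the PECAM1+ clones, and ranged from 39 to 41 when 1 PECAM1+ clone was left out. Of 492 gene values recomputed against clone A1, 0 changed sign and 3 lost the call (Spc24 without clone A3 or A5, Kif20a without clone A5). The count of 0 against both PECAM1− samples ranged from 0 to 41 when 1 sample was left out, with 41 without parental cells, where only clone A1 remains as the reference and Ccna2 differed by 4.47 and Incenp by 2.21 (both called). Without clone A1, Ccna2 turned to −0.16 and Incenp to −0.66. Against parental cells the count stayed at 0 under every setting. The MDEC rule of size gave 4 members, 5 with a 2-fold rule, 5 with quantile normalization and 29 without clone A1. The count of members at least 2-fold below parental cells in clone A1 was 41, and 39 with a 4-fold rule. The setting with all probe sets counted each member only by the probe set already used, so it does not show how calls depend on that choice. No paired analysis was made, since the labels name separate clones and give no pairing between the groups.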

Other observations

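Top2a had a second probe set with a much lower signal, which was not used and was not counted in the setting with all probe sets. Its level was 2.63 in clone A1, 4.46 in parental cells, 3.62 to 4.13 in the PECAM1+ clones and 2.14 in MDEC, a difference of 1.28 from clone A1 where the used probe set gave 3.05. The 41 members lie on 15 chromosomes, with at most 8 on one.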
